A study of Plutella xylostella with 6 samples.

Results

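Glutathione S-transferases (GST) and UDP-glycosyltransferases (UGT) are the main conjugating enzymes of insects, and their transcripts were followed in whole second-instar larvae of the diamondback moth Plutella xylostella after exposure to the plant volatile homoterpene DMNT, a nonatriene that plants release when chewed by insects. The members were all genes described in the deposited table as glutathione S-transferase, UDP-glucuronosyltransferase, UDP-glycosyltransferase or UDP-glucosyltransferase. Of 21946 genes and assembled loci, 45 matched these words, 1 that carries only a C-terminal domain of the GST type was left out, and 44 members remained, 18 GST and 26 UGT. All 26 UGT are described as UDP-glucuronosyltransferases. The authors' annotation places all 18 GST in the KEGG pathway of glutathione metabolism and all 26 UGT in that of pentose and glucuronate interconversions.

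Larvae treated with DMNT for 12 hr were compared with control larvae of the same stage, with 3 libraries each. The labels name no strain, transgene or other allele. DMNT was given in paraffin oil on forage in the study's bioassays, with the oil alone as the control, and a single dose was chosen for the later experiments of the study. The methods state no dose separately for the sequenced larvae, and how many were pooled is not stated there. Because nothing states that the libraries came from separate rearings, the p-values below measure only the spread between these libraries, which may be technical.

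Conjugation follows a simple scheme. GST join the tripeptide glutathione to reactive, electron-poor compounds, and UGT transfer a sugar from a UDP-sugar to hydroxyl and similar groups, in insects mostly glucose, so that the products become more soluble and can be pumped out of the cell. Both families take part in the handling of plant defence compounds and insecticides, and the larval midgut, fat body and Malpighian tubules are known sites of their expression. Cytosolic GST are soluble dimers, microsomal GST are small membrane proteins of a separate fold, and UGT sit in the membrane of the endoplasmic reticulum. Names such as 2B7-like are carried over from mammalian enzymes by sequence likeness and do not give the substrate of the moth enzyme.

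Total counts were 39853422 to 54671573 in the DMNT libraries and 49553028 to 56381123 in the control libraries, and 3 counts, the limit that a count of 0 allows, corresponded to 0.0523 to 0.0782 CPM (count scaled to library size), for counting error only. Marker genes of midgut, fat body, epidermis, muscle, nervous system, silk gland, Malpighian tubule with fluid transport, and testis were present in all 6 libraries. This is what whole bodies would give. Summed FPKM (fragments per kilobase of exon scaled to mapped reads) of the midgut markers was 27301 to 29084 in DMNT libraries and 25441 to 28486 in control libraries, with 14 of 172 marker genes at 0 in every library. In such bulk samples, fewer cells of a type and less RNA per cell cannot be told apart.

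Neither family responded to DMNT past the study's thresholds at 12 hr. A gene was called when its log2 fold change was at least 1 in size with an unadjusted p under 0.05 in edgeR's quasi-likelihood test, fitted on the 17709 genes whose mean FPKM reached 0.5. Of the members, 42 passed this filter on low values, 17 GST and 25 UGT. No tested GST and no tested UGT was called (0 of 17 and 0 of 25), against 0.87% of all genes tested (0.367% higher and 0.503% lower). At 0.87%, less than 1 call would be counted in a set of this size, so the count of 0 is near the background. The unadjusted p was under 0.05 for 0 of 42 members, against 3.43% of all genes, and the Benjamini-Hochberg adjusted p of the same edgeR fit was under 0.05 for 0 of 42, against 0.0113%. DESeq2 and edgeR's exact test also gave 0 calls and 0 members with an unadjusted p under 0.05, against 4.12% and 3.37% of all genes. The 3 DMNT libraries and the 3 control libraries overlapped in CPM for every one of the 42 tested members, whereas 8.37% of all genes had groups that did not overlap. The Benjamini-Hochberg adjusted p of edgeR's test was 0.99995 for each of the 42.

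The 2 members that were not tested had low levels, with 8 to 28 counts per library for the GST and 0 to 42 for the UGT. LOC105381903, described as GST D7, had 0.08, 0.11 and 0.36 FPKM in DMNT larvae, against 0.16, 0.16 and 0.23 FPKM in control larvae. LOC105380880, a UGT of the 2B17-like type, had 0.06, 0.12 and 0.32 FPKM in DMNT larvae and 0.16, 0 and 0.20 FPKM in control larvae. Both sets of values overlapped.

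How large a response these libraries could have hidden is given by the 95% interval of each log2 fold change. For 15 of 17 GST and 23 of 25 UGT the whole interval lay between -1 and 1, so that a 2-fold difference was outside it, and the same held for 67.8% of all genes tested. The interval lay within 1.5-fold either way for 8 GST and 8 UGT (30.1% of all genes). For most members the interval thus reached past a 1.5-fold difference, up or down. The exceptions to the 2-fold bound were the GST LOC105392138 and LOC105397169 and the UGT LOC105390502 and LOC105389540, described below. The median standard error (SE) of the log2 fold change was 0.20 for GST, 0.24 for UGT and 0.25 for all genes.

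**Figure D1:**
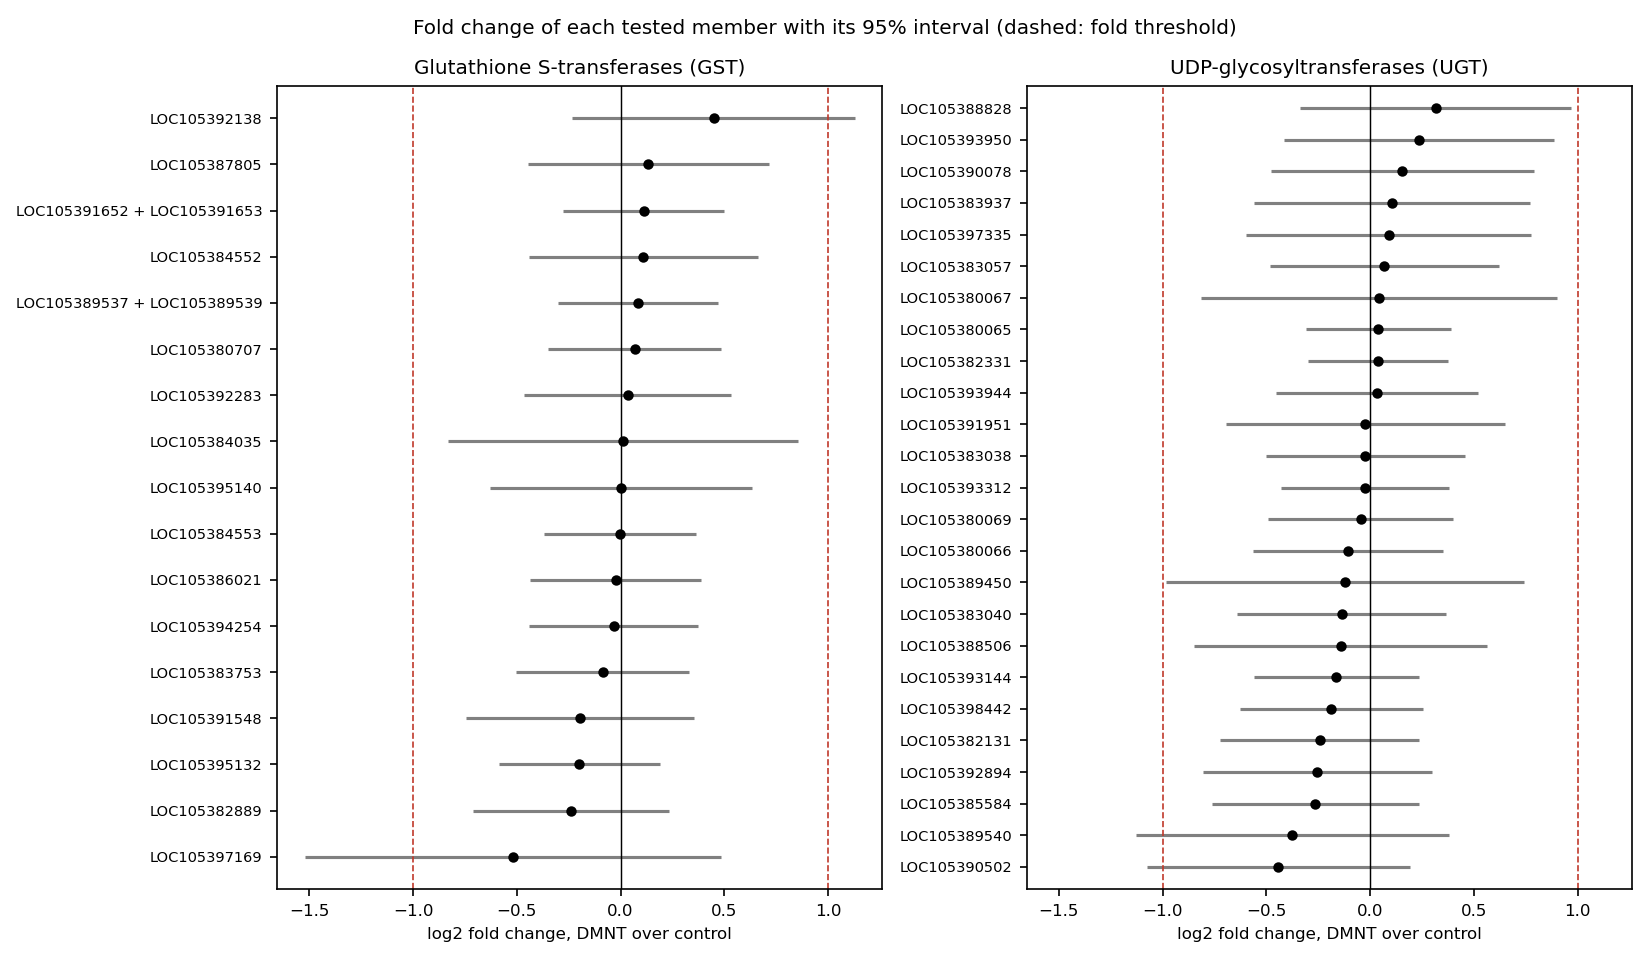
Log2 fold change of DMNT over control larvae (points) with its 95% interval (bars) from edgeR's quasi-likelihood fit for each tested GST (left, 17) and UGT (right, 25), n = 3 libraries per group. Every interval includes 0, and 4 of the 42 reach past a log2 fold change of 1 in size (dashed lines).

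The fold changes of both families were centred near 0. The median log2 fold change was 0.00 for GST and -0.02 for UGT, beside -0.00 for all genes tested, and the GST median lay 0.03 above the UGT median. For GST the values ran between -0.52 and 0.45, with 9 members above 0 and 8 below. For UGT they ran between -0.44 and 0.32, with 10 above 0 and 15 below, while 49.4% of all genes were above 0 and 50.6% below. Members are not replicates of a condition, so the difference between the families was not tested.

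The families did differ in how their transcripts were spread over members. The median member had a mean level of 14.0 FPKM among tested GST and 13.9 FPKM among tested UGT, against 4.97 FPKM for all genes tested. At the upper end, 4 GST rows and 0 UGT averaged over 100 FPKM, 1 of the 4 being a row that joins a GST with another gene, and the highest GST averaged 635 FPKM while the highest UGT averaged 48.5 FPKM. The most abundant GST, LOC105395140, made up 37.3% to 50.4% of the summed GST FPKM in DMNT libraries and 37.2% to 49.8% in control libraries. The 3 most abundant GST together gave 78.0% ± 2.5 in DMNT larvae and 78.7% ± 2.8 in control larvae (SD, n = 3 each). For UGT the 3 most abundant members gave 28.1% ± 1.6 in DMNT larvae and 28.3% ± 1.1 in control larvae (SD, n = 3 each). GST transcripts thus came mainly from a few genes and UGT transcripts from many, and the shares of the groups differed by less than the spread between libraries.

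**Figure D2:**
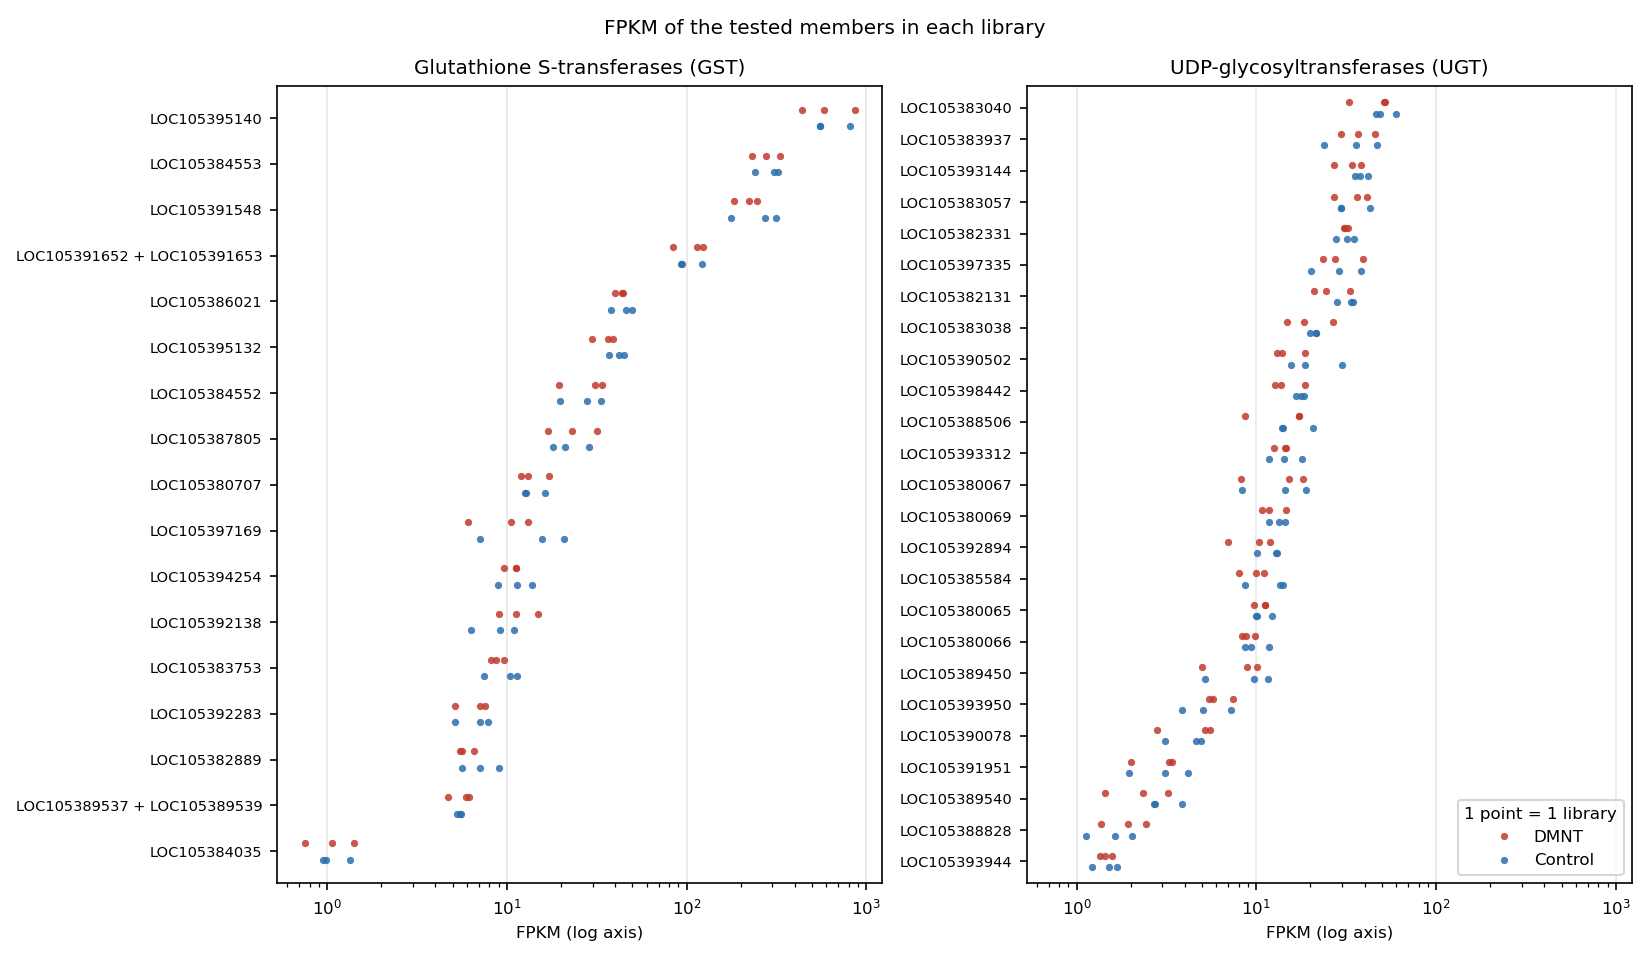
FPKM (log axis) of the 17 tested GST (left) and 25 tested UGT (right), ordered by mean level, with 1 point for each DMNT library (red, upper row of each gene) and each control library (blue, lower row). DMNT and control points overlap for every member, and 4 GST rows, 1 of them joined with another gene, but 0 UGT averaged over 100 FPKM.

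Summed over all its members, the GST family stood at 1429, 1717 and 1169 FPKM in DMNT larvae and 1491, 1392 and 1632 FPKM in control larvae. These sums, and the GST shares and ratios made from them, include the row that joins a GST with another gene, at 84.0 to 124 FPKM. The means were 1439 ± 274 FPKM in DMNT larvae and 1505 ± 121 FPKM in control larvae (SD, n = 3 each), a log2 difference of -0.07 that is smaller than the spread. The UGT family summed to 340, 428 and 462 FPKM in DMNT larvae and 450, 389 and 489 FPKM in control larvae. Its means were 410 ± 62.9 FPKM in DMNT larvae and 443 ± 50.3 FPKM in control larvae (SD, n = 3 each), a log2 difference of -0.11, also within the spread. The ratio of summed GST to summed UGT level was 4.20, 4.01 and 2.53 in DMNT libraries and 3.31, 3.58 and 3.34 in control libraries. The DMNT libraries lay on both sides of all 3 controls in this ratio.

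The most abundant GST were soluble forms described as GST 1-like, 1-1-like and plain GST-like. LOC105395140, a GST 1-like gene and the most abundant member, had 585, 865 and 436 FPKM in DMNT larvae, against 554, 555 and 813 FPKM in control larvae. In each group 1 library was high, and the DMNT values enclosed the control values. Its log2 fold change was 0.00 with an SE of 0.27. LOC105384553, described as GST 1-1-like, had 330, 278 and 232 FPKM in DMNT larvae and 308, 322 and 242 FPKM in control larvae. This gene was the steadiest of the abundant GST, with a log2 fold change of -0.00 and an SE of 0.16. LOC105391548, given only as GST-like, had 184, 246 and 223 FPKM in DMNT larvae and 317, 177 and 272 FPKM in control larvae. The lowest and the highest value were both in control libraries, and the log2 fold change was -0.19 with an SE of 0.24. The row of LOC105391652 and LOC105391653 joins a GST 2-like gene with a SET and MYND domain protein, a putative methyltransferase, so its level cannot be given to the GST alone. It had 124, 115 and 84.0 FPKM in DMNT larvae and 94.1, 122 and 93.8 FPKM in control larvae. Again the groups overlapped, with a log2 fold change of 0.11 and an SE of 0.17.

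The single microsomal GST, LOC105392138, encodes the membrane-bound form of the enzyme and had the smallest p among GST. It had 11.3, 9.00 and 14.9 FPKM in DMNT larvae and 9.20, 6.30 and 10.9 FPKM in control larvae. The DMNT library with the lowest value was below 2 of the controls. Its log2 fold change was 0.45 with an SE of 0.30, the largest positive value of either family, with an unadjusted p of 0.167 and an interval of -0.23 to 1.13 in edgeR's quasi-likelihood test.

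The other GST with the smallest p were all lower on average in DMNT larvae, none past the test. LOC105397169, a soluble GST described as 1-1, varied more between libraries than any other of the 42 tested members, by 3.40-fold in FPKM from lowest to highest. It had 6.12, 10.6 and 13.1 FPKM in DMNT larvae and 15.6, 7.08 and 20.8 FPKM in control larvae. Low values stood in 1 library of each group, and the log2 fold change was -0.52 with an SE of 0.43 and an interval of -1.52 to 0.48. LOC105395132, a GST 1-like gene, had 29.7, 38.9 and 36.4 FPKM in DMNT larvae and 42.1, 37.1 and 44.9 FPKM in control larvae. Here a single control library lay among the DMNT values, and the log2 fold change was -0.20 with an SE of 0.17. LOC105382889, also GST 1-like, had 5.51, 5.65 and 6.56 FPKM in DMNT larvae and 7.09, 9.10 and 5.62 FPKM in control larvae. Its log2 fold change was -0.24 with an SE of 0.20.

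The other 9 tested GST averaged 1.09 to 43.5 FPKM and had log2 fold changes between -0.09 and 0.13. They are the GST 1, isoform D-like genes LOC105384552, LOC105387805 and LOC105392283, the theta-2-like genes LOC105394254 and LOC105383753, and LOC105386021, LOC105380707, LOC105384035 and a row that joins the GST loci LOC105389537 and LOC105389539. Reads of that row cannot be split between its 2 genes.

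UGT were of more even level. LOC105383040, the most abundant UGT, had 32.9, 52.3 and 51.3 FPKM in DMNT larvae and 46.2, 48.7 and 59.7 FPKM in control larvae. DMNT library 1 was low and control library 3 high, and the log2 fold change was -0.14 with an SE of 0.22. LOC105383937, of the 2B14-like type, had 29.6, 37.0 and 45.5 FPKM in DMNT larvae and 36.1, 23.8 and 46.8 FPKM in control larvae. The control values enclosed those of the DMNT larvae, with a log2 fold change of 0.10 and an SE of 0.29. LOC105393144, of the 2B7-like type, had 27.0, 34.1 and 38.4 FPKM in DMNT larvae and 41.8, 35.4 and 37.8 FPKM in control larvae. In this gene 1 DMNT library lay above 2 of the controls, and the log2 fold change was -0.16 with an SE of 0.17. LOC105383057 had 27.0, 41.4 and 36.1 FPKM in DMNT larvae and 29.5, 29.6 and 43.1 FPKM in control larvae, with a log2 fold change of 0.07 and an SE of 0.24.

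The UGT with the smallest p were lower on average in DMNT larvae, and none passed the test. LOC105390502, of the 2C1 type, had 13.8, 13.0 and 18.8 FPKM in DMNT larvae and 29.8, 15.5 and 18.7 FPKM in control larvae. The first control library was far above the other 5 libraries. The log2 fold change of this gene was -0.44 with an SE of 0.28 and an interval of -1.08 to 0.19, and its unadjusted p of 0.147 in edgeR's quasi-likelihood test was the smallest of all 42 members. Leaving out control library 2, which held the lowest control value, gave 3 members an unadjusted p under 0.05 in that test (3.55% of all genes), this gene at -0.65 and the GST LOC105391548 and LOC105397169 at -0.43 and -0.87, and 0 calls. Other libraries moved these values the other way. Without control library 1 LOC105390502 was at -0.13 and LOC105391548 at -0.02, and without control library 3 LOC105397169 was at -0.12. LOC105385584, of the 3A1-like type, had 7.99, 11.1 and 9.91 FPKM in DMNT larvae and 14.1, 13.5 and 8.63 FPKM in control larvae. A pair of controls was above every DMNT library and the other was among them, with a log2 fold change of -0.26 and an SE of 0.22. LOC105382131, of the 2B7-like type, had 20.9, 24.6 and 33.1 FPKM in DMNT larvae and 34.4, 28.2 and 33.4 FPKM in control larvae. Only DMNT library 3 reached the control range, and the log2 fold change was -0.24 with an SE of 0.21. Without that library it was -0.47, with an unadjusted p of 0.0342 in edgeR's quasi-likelihood test, the only member under 0.05 in that setting (4.68% of all genes), and without DMNT library 1 it was -0.10. LOC105389540, of the 2B15-like type, is one of the least abundant UGT, with 1.44, 2.34 and 3.21 FPKM in DMNT larvae and 2.71, 2.73 and 3.88 FPKM in control larvae. Its log2 fold change was -0.37 with an SE of 0.33 and an interval of -1.13 to 0.38.

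The other 17 tested UGT averaged 1.46 to 31.6 FPKM. The largest positive log2 fold change among UGT was that of LOC105388828, of the 2B15-like type, at 0.32 with an SE of 0.28. The order of the members by level was largely shared by the groups, since 12 of 18 GST and 12 of 26 UGT had the same rank within their family in DMNT and control larvae, and no rank differed by more than 3 places among GST or 2 places among UGT.

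Libraries differed more from one another than the groups did, and this was more marked for UGT. The median over UGT of the deviation in log2 CPM from each gene's own mean was -0.27, -0.01 and 0.17 in DMNT libraries 1 to 3 and 0.04, -0.12 and 0.24 in control libraries 1 to 3, an SD within groups of 0.20. For GST it was 0.06, 0.03 and -0.11 in DMNT libraries and 0.04, 0.09 and -0.06 in control libraries, an SD of 0.084. For all genes tested the SD was 0.00846, a value held near 0 by the scaling and no yardstick for the families. Gene by gene, the SD of log2 CPM within groups had a median of 0.35 for UGT, 0.22 for GST and 0.30 for all genes. The UGT medians of libraries of 1 group were thus further apart than 0.02, the size of the median UGT log2 fold change.

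**Figure D3:**
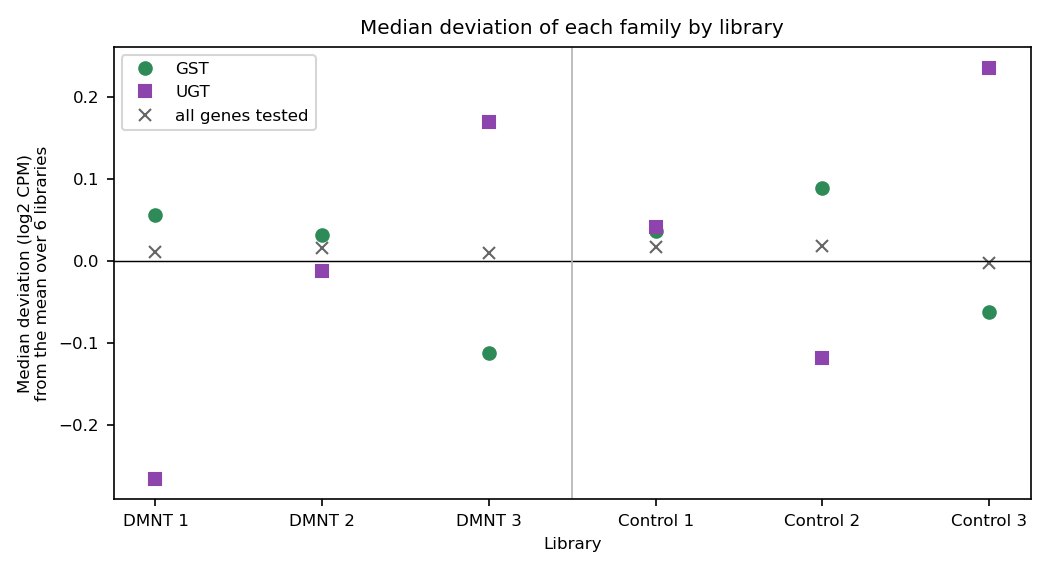
Median over 17 GST (circles), 25 UGT (squares) and 17709 genes tested (crosses) of the deviation of log2 CPM from each gene's mean over the 6 libraries, for DMNT libraries 1 to 3 and control libraries 1 to 3. UGT medians range between -0.27 and 0.24 and are low in DMNT 1 and control 2 and high in DMNT 3 and control 3. The crosses are held near 0 by the scaling and are no yardstick for the families.

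Which libraries were high or low, by CPM throughout this paragraph, differed between the families. Within the DMNT larvae, library 1 was the lowest for 15 of 25 UGT, and within the controls, library 2 was the lowest for 16. Over all 17709 genes tested, the same held for 6227 and 6367. Library 3 of each group was the highest in both groups for 13 of 25 UGT (52.0%), against 15.7% of all genes tested. Among them were LOC105383040, LOC105383937, LOC105382131, LOC105397335 and LOC105389540. In FPKM, LOC105383040 was highest in DMNT library 2 and LOC105382131 in control library 1. In contrast, library 3 of each group was the lowest in both groups for 6 of 17 GST (35.3%), against 16.6% of all genes. These 6 were all 3 isoform D-like genes, both theta-2-like genes and the abundant LOC105384553. Some members went the other way. In both groups library 3 was the highest for 3 GST (17.6%) and the lowest for 3 UGT (12.0%). Numbers of replicates tie no DMNT library to a control library in the labels, and these shares were noticed in the data and not tested.

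Markers of other tissues moved across the same libraries. The summed FPKM of epidermis markers, cuticle proteins and chitin synthases, was 9347, 17450 and 16924 in DMNT libraries and 17201, 14194 and 20242 in control libraries, lowest in DMNT 1 and control 2 and, in the controls, highest in library 3, as for most UGT. Of 104 epidermis markers 2 were at 0 in every library. The sum of the fat body markers ranged between 998 and 4840 FPKM in DMNT libraries, lowest in library 3, and between 1803 and 3874 FPKM in control libraries, lowest in library 1, with 1 of 14 markers at 0 in every library. Midgut markers varied less, at 29084, 27590 and 27301 FPKM in DMNT libraries and 25441, 28486 and 25526 FPKM in control libraries. They were highest in DMNT 1 and control 2, the libraries where the UGT medians were lowest. The list for Malpighian tubule and fluid transport holds V-type proton ATPase and aquaporin genes, so it is not limited to the tubule. It summed to 5724, 6558 and 6827 FPKM in DMNT libraries and 6130, 6064 and 6833 FPKM in control libraries. Within each group the order of these sums was that of the UGT medians. Silk gland markers summed to 2400, 1867 and 1421 FPKM in DMNT libraries and 1836, 2189 and 1652 FPKM in control libraries. Markers of silk gland, nervous system and testis were lowest in library 3 of each group, as for 6 GST. The part of these tissues in the levels of GST and UGT was not tested.

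**Figure D4:**
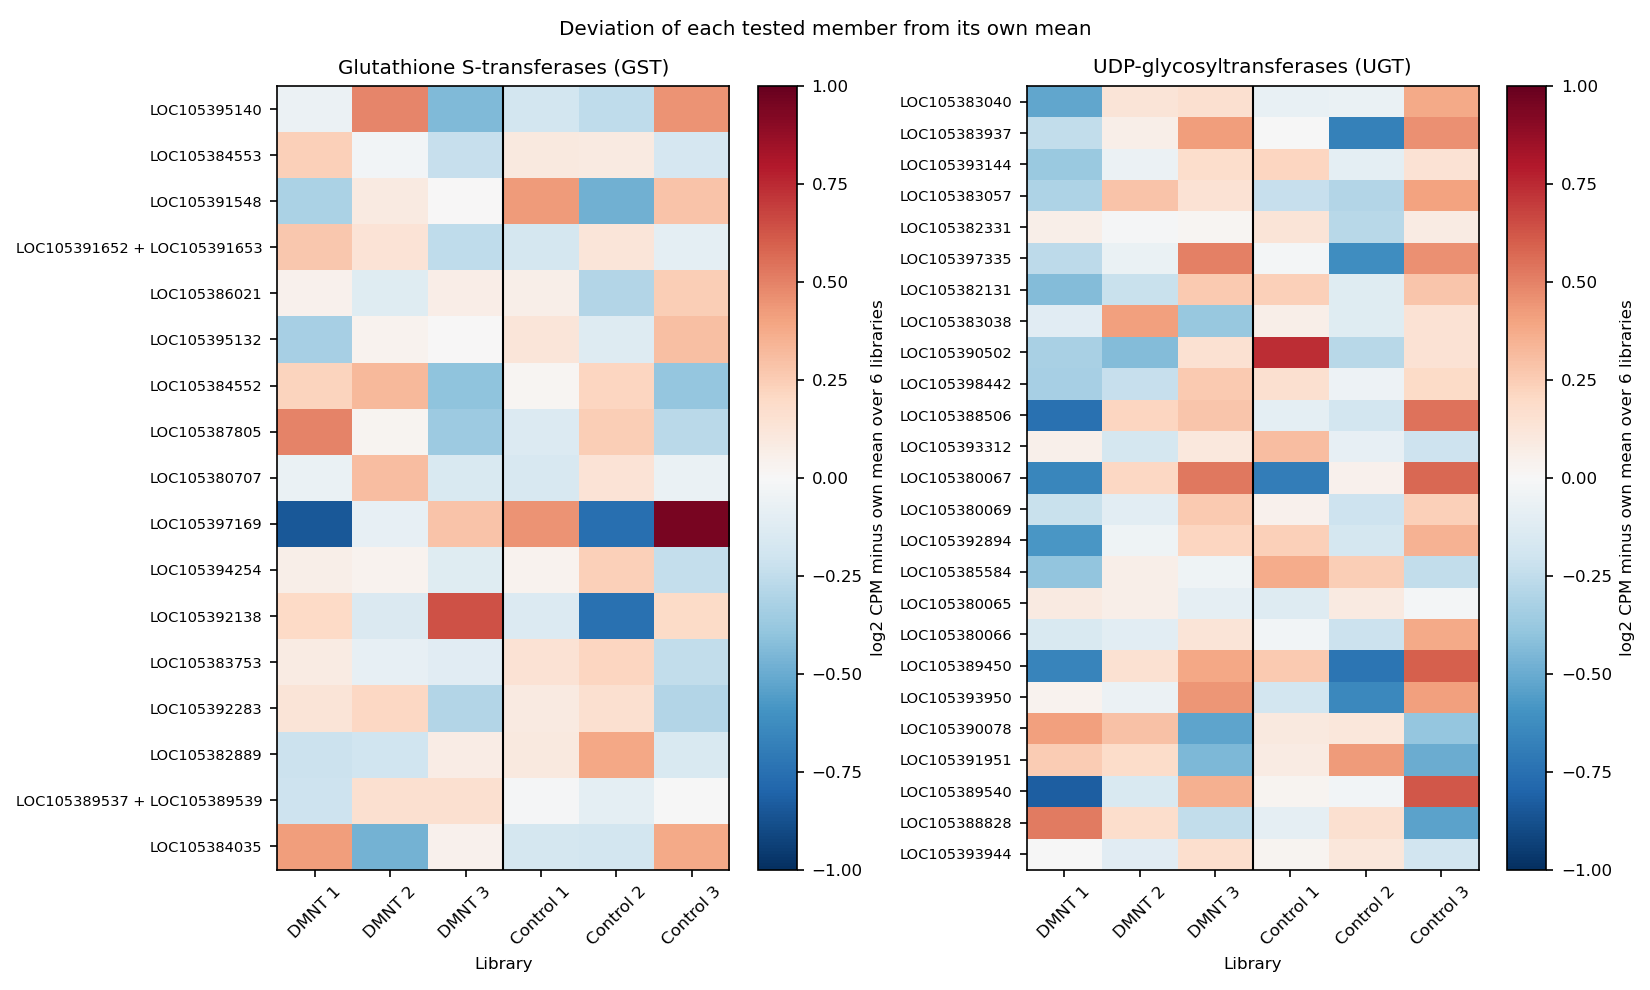
Deviation of log2 CPM of each tested GST (left) and UGT (right) from its own mean over the 6 libraries, members ordered by level, DMNT libraries left of control libraries (red, above the mean; blue, below). No member separates the groups, DMNT library 1 and control library 2 are below the mean for 18 of 25 UGT each, and library 3 of each group is above it for 19 (DMNT) and 18 (control) UGT.

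Several members lie next to each other in the genome, as seen in a newer RefSeq annotation of the species (ilPluXylo3.1) that was used for gene order only, in which 34 of 45 member symbols were found. The GST LOC105395140 and LOC105395132 are adjacent there, as are LOC105384552 and LOC105384553, and LOC105389537 and LOC105389539. Adjacent GST differed widely in level, for example with means of 629 ± 218 FPKM for LOC105395140 and 35.0 ± 4.77 FPKM for its neighbour LOC105395132 in DMNT larvae (SD, n = 3 each). Of the UGT, LOC105393950 and LOC105393944 are adjacent with LOC105393144 on the far side of 1 other gene, and LOC105383040 and LOC105383038 are adjacent with LOC105393312 on the far side of 1 other gene. The 4 UGT LOC105380065, LOC105380067, LOC105380066 and LOC105380069 follow one another in the authors' numbering of assembled loci and had similar mean levels, 9.47 to 13.9 FPKM. The families also meet, since 4 genes lie between the UGT LOC105389540 and the GST LOC105389539 in the newer annotation. In the authors' numbering of assembled loci 1 number lies between this UGT and the joined row of LOC105389537 and LOC105389539. Neighbouring members of one family can be near-identical copies that share reads, so the split of counts between them is uncertain.

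None of the genes that supply or control the conjugating enzymes was called. A list of 37 genes was made by words in the description, with glutathione synthesis, breakdown and recycling (17), UDP-sugar supply (13) and the known regulators of detoxification (7), and 36 of them were tested. Of these 0 were called, against 0.87% of all genes, 1 had an unadjusted p under 0.05, against 3.43%, and after Benjamini-Hochberg adjustment in edgeR's test 0 were left. The median log2 fold change was -0.04, with 14 genes above 0 and 22 below. The words also caught enzymes of other functions, among them a pair of transglutaminases, S-formylglutathione hydrolase and hydroxyacylglutathione hydrolase, which are included in these counts. Beta-glucuronidase is counted under UDP-sugar supply, and an aryl hydrocarbon receptor nuclear translocator-like protein 2 gene under the regulators. Some rows join a listed gene with another, a glutathione peroxidase with a juvenile hormone epoxide hydrolase and a MafK-like gene with a membrane protein.

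LOC105380353, a gamma-glutamyltranspeptidase, which splits extracellular glutathione, was the gene of this list with p under 0.05. It had 3.11, 4.33 and 4.15 FPKM in DMNT larvae and 5.83, 5.82 and 4.85 FPKM in control larvae. Every DMNT library was thus below every control, while 8.37% of all genes had groups apart in CPM in either direction. The log2 fold change was -0.46 with an SE of 0.19, and the unadjusted p was 0.0417 with a Benjamini-Hochberg adjusted p of 0.99995 in edgeR's quasi-likelihood test. The unadjusted p was 0.0636 in edgeR's exact test and 0.0510 to 0.114 in the quasi-likelihood test without any 1 of the 6 libraries. It thus did not stay under 0.05 in those settings. With DESeq2 it was 0.0401, and with limma on FPKM 0.0400 and 0.0362. In the quasi-likelihood test it was 0.0399 with median-ratio scaling, 0.0430 with no filter and 0.0413 with a mean FPKM of at least 2. LOC105390077, described as phosphoglucomutase-2-like, had 4.30, 4.32 and 3.45 FPKM in DMNT larvae and 3.40, 3.77 and 2.80 FPKM in control larvae. In CPM every DMNT library was above every control, as for 8.37% of all genes in either direction, while in FPKM the groups overlapped, and the log2 fold change was 0.33 with an SE of 0.17. LOC105387419, a putative hexokinase, had 2.04, 2.93 and 2.15 FPKM in DMNT larvae and 2.86, 3.25 and 3.08 FPKM in control larvae, with a log2 fold change of -0.32 and an SE of 0.20. These 2 genes did not pass the test. Glutamate-cysteine ligase, the first step of glutathione synthesis, is represented by LOC105397173 and LOC105384723 and its regulatory subunit by LOC105384677, with log2 fold changes of -0.17, -0.05 and 0.15 and SE of 0.18, 0.29 and 0.21. UDP-glucose 6-dehydrogenase, which makes UDP-glucuronate, is represented by LOC105380703 and LOC105390100, at 0.20 and -0.04 with SE of 0.16 and 0.22. Among the regulators, Keap1 (LOC105383020), the cytoplasmic inhibitor of the cap'n'collar factor, was at -0.13 with an SE of 0.29. The NRF2-like gene LOC105390521, averaging 0.59 FPKM, was at -0.61 with an SE of 1.55, which is too wide to read, and the aryl hydrocarbon receptor LOC105380477 averaged 0.03 FPKM and was not tested. No gene of the list passed the thresholds in either direction.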

How the data were processed

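Poly(A) RNA of whole larvae was sequenced in strand-marked libraries. By the methods, the authors used cutadapt to clean reads, Hisat to align them to an NCBI genome of the species and StringTie to assemble and quantify genes. HISAT, StringTie and edgeR stand without versions in the submitters' processing notes. The deposited table gives 2 units. Its counts are whole reads per gene with no scaling, and the sources used here give neither the program that counted them nor whether it used strand, so reads of overlapping or antisense genes cannot be told apart. Its FPKM, made by the authors, are relative to exon length and to the mapped reads of the library.

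Samples were grouped by title. A minimum mean FPKM of 0.5 left 17709 of 21946 genes. Their deposited counts were TMM-scaled and fitted without covariates in edgeR 4.0.16 (R 4.3.3) by glmQLFit, followed by glmQLFTest, with Benjamini-Hochberg adjustment over all genes tested. Calls used the study's thresholds, an absolute log2 fold change of 1 or more together with an unadjusted p under 0.05. The SE is the absolute log2 fold change over the square root of F, and intervals use the t distribution of the fit. The fit was tested on simulated data. No library was a copy of another, since the mean chi-square per gene was 51.7 to 145 over the 15 pairs. Library deviations used log2(CPM + 0.05).

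The members and lists were chosen with earlier results of these data known. Genes described by library were, in each family, the 4 most abundant members, the 4 with the smallest p and any microsomal GST, and the 3 supply genes with the smallest p. A called member, or 1 with groups apart, would have been added, and there was none. Other members and supply genes given with a value were chosen after their values were seen. Alternatives were DESeq2 1.42.0, limma 3.58.1 on log2(FPKM + 1) and log2(FPKM + 0.1), median-ratio scaling, no filter, a mean FPKM minimum of 2, a replicate block, leaving out each library and, added after seeing the data, edgeR's exact test.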

Additional observations from a re-analysis of the deposited data

How the results depend on the processing

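The count of called members was 0 in both families, and 0 in the supply and regulator list, under all 14 alternatives. Calls over all genes numbered 154, against 84 with limma on log2(FPKM + 1), 84 with a mean FPKM of at least 2, 240 with no filter, and 162 to 271 without 1 library. Unadjusted p-values under 0.05 appeared among members in 3 settings, without control replicate 2 and without DMNT replicate 3, as given beside those genes, and with a block. With the replicate number as a block there was 1, LOC105392138 at 0.46 with an unadjusted p of 0.0312 in edgeR's test (5.07%), LOC105380353 of the supply list was at 0.0522 there, and the block moved the calls over all genes to 178. The correlation of same-numbered libraries in their deviations from the group means was 0.0637, 0.0480 and 0.0776, which does not pair them, although each library correlated best with its own number, a hint from the data and not the design. Without 1 library the GST median log2 fold change ranged between -0.07 and 0.03, the UGT median between -0.20 and 0.04 and their difference between -0.09 and 0.22, so the direction of each depends on single libraries. Summed FPKM gave log2 differences of -0.21 to 0.06 for GST and -0.20 to 0.01 for UGT without 1 library. Of 266 values of the 19 genes described by library under the alternatives, 20 differed in sign, none of a gene with a log2 fold change over 0.14 in size, 5 moved by over 1 SE and 0 became calls. Counts of tested members were 46 to 41094 per library and those of the 2 untested members at most 42. The tested member with the fewest counts, LOC105384035 with 46 to 80, had an SE of 0.37.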

Other observations

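Enzymes that share the fold of GST but carry other names were listed after the data were seen. They comprise the maleylacetoacetate isomerases LOC105386124 and LOC105380903 (tyrosine breakdown), pyrimidodiazepine synthase-like genes, an eye pigment enzyme in Drosophila, and failed axon connections. All 8 were tested and 0 were called, with a median log2 fold change of -0.09, 2 above 0 and 6 below. LOC105386124 had 4.25, 4.27 and 4.23 FPKM in DMNT larvae and 6.54, 6.10 and 4.96 FPKM in control larvae. Its groups did not overlap, as for 8.37% of all genes in CPM in either direction. Its log2 fold change was -0.41 with an SE of 0.18 and an unadjusted p of 0.0550 in edgeR's quasi-likelihood test, short of the threshold.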
